A study of Mus musculus with 6 samples.

Results

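The genes described here are 44 genes of the mitochondrial respiratory chain, chosen by name as a list: the 13 protein genes of the mitochondrial genome, 28 nuclear genes of complexes I to V and cytochrome c, among them the muscle isoforms Cox6a2, Cox7a1 and Cox8b, and the biogenesis factors Tfam, Ppargc1a and Nrf1. All 44 were found among the 55414 gene identifiers of the deposited count table, and 43 had enough reads to be tested. RNA was sequenced from C2C12 cells, a wild-type line of mouse myoblasts that can differentiate into myotubes, after lipofectamine transfection of an siRNA against Usf2 (siUsf2 1 to 3) or a control siRNA (siControl 1 to 3). Both groups were kept in growth medium with serum. No time after transfection is given in the sources used here. The labels do not say whether replicates were separate cultures, so the p-values rest on a spread between libraries that may be technical only. The design text states the aim as the function of USF2, an E-box binding transcription factor, in these cells.

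The respiratory chain passes electrons from NADH and succinate to oxygen and uses the energy to pump protons, and ATP synthase uses the proton gradient to make ATP. Complexes I, III and IV and ATP synthase are built from subunits of both genomes, whereas complex II is wholly nuclear. Mitochondrial protein genes are read from long transcripts of the circular mitochondrial genome, and Tfam, the main packaging and transcription factor of that genome, links its expression to the nucleus. In skeletal muscle, some subunits of complex IV are replaced by muscle isoforms as fibres mature.

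Usf2 was at 26.2, 31.2 and 23.0 CPM (counts scaled to the library's total) in siControl 1 to 3, at 17.1 and 15.3 CPM in siUsf2 1 and 2, and at 30.8 CPM in the library labelled siUsf2 3. Usf1, its paralog, did not pass (log2 fold change -0.25, edgeR adjusted p = 0.234). In its Usf2 level, the library labelled siUsf2 3 thus goes against its label. Of the 10 muscle markers described below, 7 lay below every siControl library there and 1 above. Over all genes, 42.8% lay below and 38.5% above. The library labelled siUsf2 3 also held only 3414565 counts, against 14790997 to 17715250 in the others. Pseudogenes took 0.974% of its counts against 14.0% to 15.3%. The comparison below is of siUsf2 1 and 2 with siControl 1 to 3, with the library labelled siUsf2 3 shown apart. That choice was made with earlier results of these data known. In this library most nuclear members went the opposite way to siUsf2 1 and 2. The calls below depend on leaving it out, and with all 6 libraries no member passed by edgeR. Muscle identity was clear in all 6 libraries: desmin (Des), the muscle intermediate filament, was at 1130 to 1607 CPM. Summed levels of adipocyte, endothelial and leukocyte markers were low. They were 5.00 to 7.91 CPM for 5 adipocyte markers, mostly Pparg, and 1.28 to 4.69 CPM for 4 endothelial markers, mostly Tek. For 4 leukocyte markers, mostly Cd68, the sum was 0 to 2.69 CPM. The 5 fibroblast markers were not low. They summed to 414 to 497 CPM in siControl and siUsf2 1 and 2, and to 1054 CPM in the library labelled siUsf2 3. Most of this was Col1a1, at 226 to 325 CPM and 904 CPM. Pdgfra was at 97.3 to 114 CPM and 97.8 CPM, and Dcn at 66.2 to 75.8 CPM and 51.5 CPM. Lum and Thy1 did not exceed 0.847 CPM. Tek was at 1.22 to 2.37 CPM in siControl and above that in siUsf2 1 and 2, at 2.66 and 2.88 CPM. The defining markers Adgre1, Ptprc, Adipoq and Cdh5 did not exceed 0.437 CPM, and Fabp4 and Pecam1 were highest in the library labelled siUsf2 3, at 2.64 and 1.17 CPM.

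After Usf2 siRNA some nuclear respiratory chain genes fell, and none of the mitochondrially encoded genes passed the test. Of 30 tested nuclear members, 8 fell and 22 did not pass by edgeR, with a median log2 fold change (siUsf2 over siControl, negative where siUsf2 was lower) of -0.29 and a range of -2.07 to 0.53. The 8 were Ndufv1, Sdhd, Uqcrc1, Uqcrfs1, Cox4i1, Cox6a2, Atp5a1 and Atp5b, at least 1 from each of the 5 complexes. Apart from Cox6a2, their levels were 18.4% to 25.2% lower by the fitted fold change. No member rose by edgeR or DESeq2, with mt-Atp8 the only tested member that was higher at an unadjusted p below 0.05. Over all 17217 genes tested, 6.4% fell and 4.97% rose at an adjusted p below 0.05, corrected over all genes, and the median log2 fold change was -0.01. The share that fell was 18.6% over all 43 tested members and 26.7% over the nuclear ones. In 17 nuclear members both siUsf2 libraries lay below every siControl library, 56.7% of those tested, whereas 19.5% of all genes did so.

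**Figure D1:**
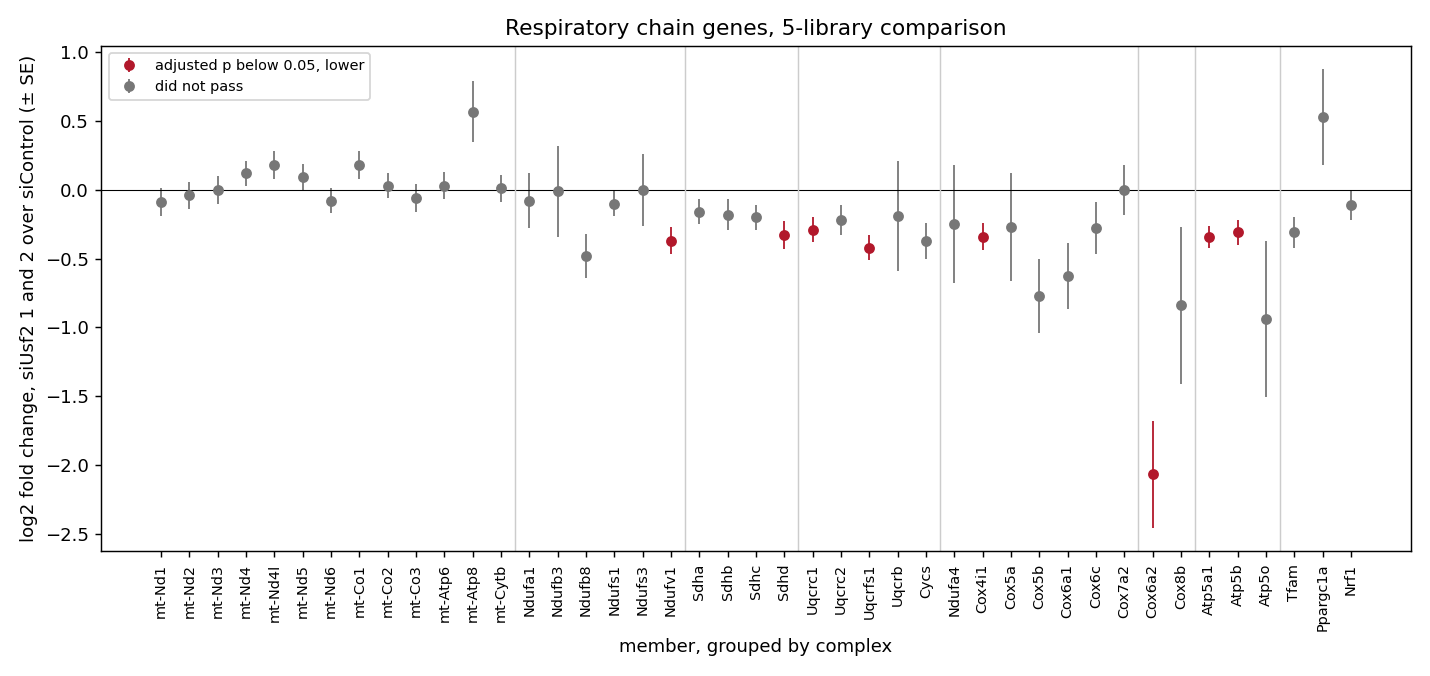
Log2 fold change (vertical axis, siUsf2 1 and 2 over siControl 1 to 3, bars ± SE from the edgeR fit) of the 43 tested members, grouped by complex on the horizontal axis. The 13 mitochondrially encoded genes on the left lie between -0.09 and 0.57, and the 8 red points are the nuclear members that fell.

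Single libraries moved the number of calls. Without siControl 1 or siControl 2, edgeR called 4 members lower in each fit, and without siControl 3 it called 10. Cox6a2, Uqcrfs1 and Atp5a1 were called in each of these fits. The fits without siUsf2 1 or without siUsf2 2 leave 1 siUsf2 library, with the spread taken from the siControl libraries. In these the log2 fold change was -3.29 and -1.45 for Cox6a2 and -0.41 and -0.42 for Uqcrfs1. With the replicate number as a block, 12 members fell and 5 rose, where 13.2% and 9.98% of all genes did. In that fit siControl 3 is alone in its block and adds nothing to the fold change. Upper-quartile normalization turned the balance over all genes from 855 higher and 1102 lower to 1124 higher and 900 lower, with 7 members lower.

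Complex I oxidises NADH. Its subunit Ndufv1, which carries the NADH-binding site, was at 82.6, 89.5 and 74.4 CPM in siControl 1 to 3 and at 61.5 and 66.2 CPM in siUsf2 1 and 2. The groups do not overlap (log2 fold change -0.37, SE 0.10, edgeR adjusted p = 0.0116). Ndufb8, an accessory membrane subunit, was at 14.7, 15.3 and 13.5 CPM and at 11.3 and 9.78 CPM, also without overlap, but did not pass (log2 fold change -0.48, SE 0.16, edgeR adjusted p = 0.0572). Ndufs1, the largest iron-sulfur subunit, was at 71.8 to 78.9 CPM in siControl and at 69.4 and 70.4 CPM in siUsf2 1 and 2 (log2 fold change -0.10, SE 0.09). The remaining complex I members, Ndufa1, Ndufb3 and Ndufs3, had log2 fold changes of -0.08, -0.01 and 0.00 with SEs of 0.20 to 0.33, from levels below 11 CPM in these libraries.

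Complex II, succinate dehydrogenase, also belongs to the citric acid cycle. All 4 of its genes had siUsf2 1 and 2 below every siControl library, where 19.5% of all genes did so. Of the 4, only Sdhd passed the test. Sdhd, a membrane anchor, was at 86.9, 98.8 and 83.5 CPM in siControl 1 to 3 and at 75.8 and 68.0 CPM in siUsf2 1 and 2 (log2 fold change -0.33, SE 0.10, edgeR adjusted p = 0.0236). None of the others passed, with log2 fold changes of -0.16 (SE 0.09) for the flavoprotein Sdha, -0.18 (SE 0.11) for the iron-sulfur subunit Sdhb and -0.20 (SE 0.09) for the anchor Sdhc.

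Complex III hands electrons from ubiquinol to cytochrome c. Uqcrfs1, the Rieske iron-sulfur protein, was at 119, 136 and 116 CPM in siControl 1 to 3 and at 93.9 and 92.5 CPM in siUsf2 1 and 2. It had the smallest adjusted p among the members after Cox6a2 (log2 fold change -0.42, SE 0.09, edgeR adjusted p = 0.00263). The core protein Uqcrc1 went from 81.1, 76.3 and 74.0 CPM to 63.2 and 63.9 CPM (log2 fold change -0.29, SE 0.09, edgeR adjusted p = 0.0406), a call that ended with DESeq2 (adjusted p = 0.0523) and with upper-quartile normalization (edgeR adjusted p = 0.0779). Its partner Uqcrc2 overlapped between groups, at 50.8 to 65.7 and 49.3 to 54.6 CPM. Cycs, which encodes cytochrome c, lay below every siControl library at 19.0 and 21.3 CPM against 23.8 to 26.8 CPM, and did not pass (log2 fold change -0.37, SE 0.13, edgeR adjusted p = 0.0674).

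Complex IV, cytochrome c oxidase, reduces oxygen. Cox4i1, its regulatory subunit, was at 118, 118 and 101 CPM in siControl 1 to 3 and at 79.1 and 99.9 CPM in siUsf2 1 and 2 (log2 fold change -0.34, SE 0.10, edgeR adjusted p = 0.0305). The 2 siUsf2 libraries differ by more than the gap between the groups. Cox5b, at 3.92 to 5.81 CPM and 3.35 and 2.68 CPM, and Cox6a1, at 7.62 to 15.8 CPM and 7.90 and 8.24 CPM, did not pass. For Cox5b edgeR gave a log2 fold change of -0.77 (SE 0.27) at an adjusted p of 0.0644, without overlap, and for Cox6a1 -0.63 (SE 0.24) at 0.0992, with overlap. The other general members of complex IV were Ndufa4, Cox5a, Cox6c and Cox7a2, with log2 fold changes of -0.28 to -0.00. Cox6c overlaps Vps13b by 250 bases on the opposite strand, Cox4i1 overlaps Emc8 by 154 bases and Atp5a1 overlaps Haus1 by 129; without a stated strand setting, reads of such partners cannot be told apart.

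The muscle isoforms were scarce in these myoblasts, and Cox6a2 showed the largest change of any member. Cox6a2, the heart and skeletal muscle form of subunit VIa, was at 5.68, 9.12 and 5.08 CPM in siControl 1 to 3 (84, 146 and 90 reads) and at 2.47 and 0.670 CPM in siUsf2 1 and 2 (39 and 10 reads). The groups do not overlap (log2 fold change -2.07, SE 0.39, edgeR adjusted p = 0.00186). Its size differed between the siUsf2 libraries: it was -3.29 without siUsf2 1 and -1.45 without siUsf2 2, fits that each leave 1 siUsf2 library. Cox8b, the muscle form of subunit VIII, had 18, 18 and 17 reads in siControl and 12 and 7 in siUsf2 1 and 2 (log2 fold change -0.84, SE 0.57), which did not pass. Cox7a1, the muscle form of subunit VIIa, had 2 to 7 reads in siControl and 15 and 6 in siUsf2 1 and 2, too few to be tested. The library labelled siUsf2 3 held 6.74 CPM of Cox6a2 (95% Poisson interval 4.27 to 10.1, counting error only), within the siControl range.

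Most muscle differentiation markers fell in the same comparison. Of 10 listed muscle markers 9 fell and 1, Myf5, rose by edgeR, and their summed level was 6063 to 6385 CPM in siControl, 2659 and 2885 CPM in siUsf2 1 and 2, and 4023 CPM in the library labelled siUsf2 3. Ckm, muscle creatine kinase, fell by 2.55 on the log2 scale (SE 0.13) at an edgeR adjusted p of 6.156e-15. Mb, the oxygen store myoglobin, fell by 4.07 (SE 0.34) at an edgeR adjusted p of 3.541e-10. Of 4 tested fibroblast markers Col1a1 rose and 3 did not pass. The summed level of the 5 listed was 414 to 432 CPM in siControl and 497 and 491 CPM in siUsf2 1 and 2. In the library labelled siUsf2 3 it was 1054 CPM, of which Col1a1 was 904 CPM, while Dcn lay below every siControl library at 51.5 CPM. The part of these marker levels in the change of Cox6a2 and the general subunits was not tested. In bulk RNA, fewer cells of a differentiated kind and less RNA per cell cannot be told apart.

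Of the 3 ATP synthase members 2 fell. Atp5a1, the alpha subunit of the catalytic head, was at 577, 618 and 567 CPM in siControl 1 to 3 and at 462 and 472 CPM in siUsf2 1 and 2 (log2 fold change -0.34, SE 0.08, edgeR adjusted p = 0.00701). Atp5b, the catalytic beta subunit, was at 565, 579 and 537 CPM and at 427 and 482 CPM (log2 fold change -0.31, SE 0.09, edgeR adjusted p = 0.0167). Neither pair of groups overlaps. Atp5o, a stalk subunit, had 13 to 38 reads in siControl and 20 and 5 in siUsf2 1 and 2, and did not pass; the reads of its pseudogene copy are described below.

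**Figure D2:**
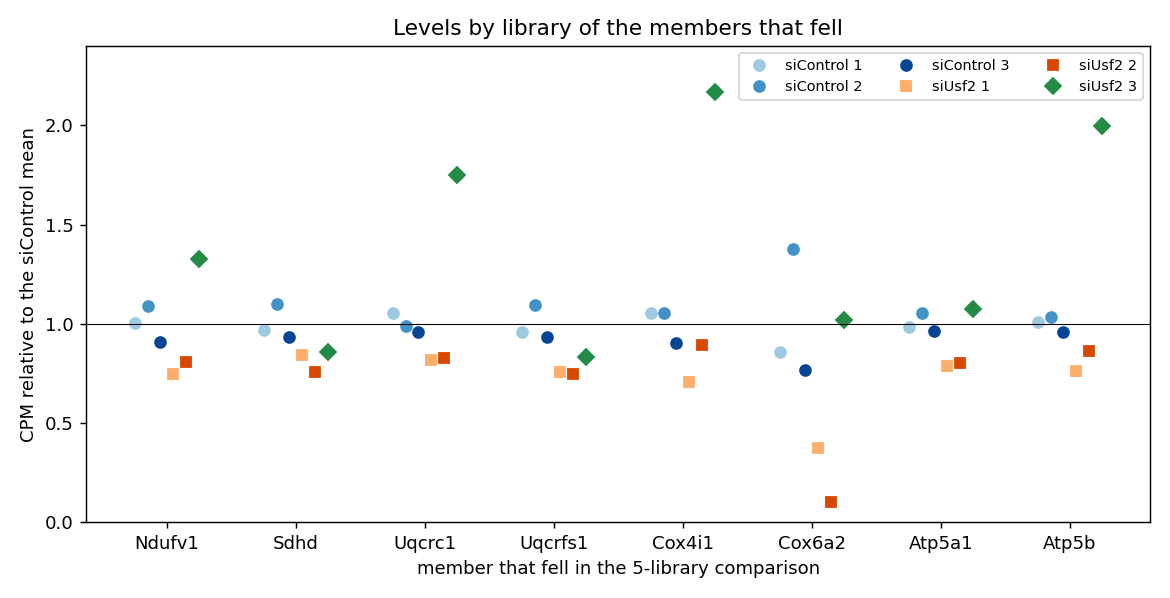
CPM of the 8 members that fell, divided by the siControl mean of each gene (vertical axis), by library. Circles are siControl 1 to 3, squares siUsf2 1 and 2, and green diamonds the library labelled siUsf2 3, which lies above every siControl library for Ndufv1, Uqcrc1, Cox4i1, Atp5a1 and Atp5b.

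The biogenesis factors did not pass. Tfam was at 45.7, 54.7 and 54.8 CPM in siControl 1 to 3 and at 41.8 and 42.3 CPM in siUsf2 1 and 2, without overlap (log2 fold change -0.31, SE 0.11, edgeR adjusted p = 0.0549). In the library labelled siUsf2 3 it was at 34.6 CPM (95% Poisson interval 28.6 to 41.4). Nrf1, a transcription factor of respiratory genes, overlapped between groups at 37.6 to 39.4 and 34.1 to 37.8 CPM. Ppargc1a, the coactivator PGC-1alpha, was low, with 25 to 39 reads in siControl and 54 and 33 in siUsf2 1 and 2 (log2 fold change 0.53, SE 0.35).

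The nuclear subunits that are not members gave a like picture. Of 55 tested among 57 listed, 10 fell, or 18.2%, where 6.4% of all genes did. The other 45 did not pass, and the median log2 fold change was -0.29. None rose by edgeR or DESeq2; 2 were higher and 18 lower at an unadjusted p below 0.05. The 3 with the smallest p in complex I were Ndufb10 at a log2 fold change of -0.56 (SE 0.11), Ndufa9 at -0.42 (SE 0.13) and Ndufa2 at -0.54 (SE 0.17). Cyc1, the cytochrome c1 of complex III, went from 164, 174 and 143 CPM to 119 and 107 CPM (log2 fold change -0.52, SE 0.09, edgeR adjusted p = 3.311e-04). Atp5g3, a subunit of the ATP synthase rotor ring, went from 144, 152 and 123 CPM to 101 and 97.4 CPM (log2 fold change -0.50, SE 0.10, edgeR adjusted p = 4.889e-04). Cox7b, Uqcrq, Atp5d and Atp5j also fell, at -0.78, -0.48, -0.44 and -0.29. With pseudogene counts added, Cox7b was at -0.41 and Uqcrq no longer passed (edgeR adjusted p = 0.088). In that fit 16 of the 55 fell, where 8% of all genes did. In the library labelled siUsf2 3, 54 of the 55 lay above every siControl library, where 38.5% of all genes did.

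Of 43 tested assembly factors 2 fell, Sco1 (log2 fold change -0.60, SE 0.15), a copper chaperone of complex IV, and Cox15 (-0.40, SE 0.11), an enzyme of heme A synthesis. Ttc19, a complex III factor, rose by 0.36 on the log2 scale (SE 0.11). Of 17 genes of mitochondrial DNA maintenance and expression none passed by edgeR or DESeq2, with 3 lower at an unadjusted p below 0.05. Of 12 tested regulators, Gabpa, an ETS factor of respiratory promoters, fell (log2 fold change -0.28, SE 0.09, edgeR adjusted p = 0.0351). Beside these counts, 6.4% of all 17217 genes tested fell and 4.97% rose.

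Of 21 genes of the citric acid cycle and pyruvate dehydrogenase, 3 fell and 2 rose, where 6.4% and 4.97% of all genes did. Both that rose were pyruvate dehydrogenase kinases, which switch off the entry of pyruvate into the cycle. Pdk1 went from 81.9, 90.7 and 81.9 CPM to 113 and 127 CPM (log2 fold change 0.49, SE 0.09, edgeR adjusted p = 4.026e-04). Pdk4 went from 21.4, 25.9 and 25.8 CPM to 36.5 and 39.0 CPM (log2 fold change 0.62, SE 0.12, edgeR adjusted p = 6.645e-04). Another kinase, Pdk2, fell by 0.47 on the log2 scale (SE 0.13), as did Suclg1 by 0.33 (SE 0.10) and Pdhb, a subunit of pyruvate dehydrogenase itself, by 0.37 (SE 0.11). In the library labelled siUsf2 3, 20 of these 21 genes lay above every siControl library, those that fell included, where 38.5% of all genes did. There Pdk1 was at 113, Pdk4 at 31.9, Pdk2 at 32.8, Suclg1 at 72.9 and Pdhb at 87.3 CPM. The median log2 ratio of the 21 genes to the siControl mean was 0.44, and 0.31 with the reads of pseudogene copies added.

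None of the 13 mitochondrially encoded genes passed by edgeR or DESeq2, with 1, mt-Atp8, higher at an unadjusted p below 0.05. Together they took 3.59%, 3.64% and 4.33% of all counts in siControl 1 to 3 and 3.99% and 4.21% in siUsf2 1 and 2, so the groups overlap. The median log2 fold change was 0.03. mt-Co1, the catalytic subunit of complex IV, held the most reads of the 13, at 14609, 14502 and 17532 CPM in siControl and 17447 and 18051 CPM in siUsf2 1 and 2 (log2 fold change 0.18, SE 0.10, edgeR adjusted p = 0.289). mt-Nd1, a membrane subunit of complex I, was at 4135, 4309 and 4968 CPM and at 4017 and 4440 CPM (log2 fold change -0.09, SE 0.10). mt-Cytb, the cytochrome b of complex III, had a log2 fold change of 0.01 (SE 0.10). The siControl libraries themselves differed, with siControl 3 the highest for each gene but mt-Nd3. Without siControl 3, edgeR called mt-Atp8, mt-Co1, mt-Nd4 and mt-Nd4l higher. Without siUsf2 1, which leaves 1 siUsf2 library, the log2 fold change of mt-Atp8 was 0.82. mt-Atp8 was at 5.19 to 6.38 CPM in siControl and 7.27 and 10.3 CPM in siUsf2 1 and 2 (log2 fold change 0.57, SE 0.22, edgeR adjusted p = 0.0823). Its 204 bases overlap mt-Atp6 by 43, where a read can belong to either gene. The ribosomal and transfer RNA genes of the mitochondrial genome did not pass either, in any of 14 tested (by edgeR or DESeq2; 1, mt-Ts2, at an unadjusted p below 0.05).

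Per length, the mitochondrial transcripts other than mt-Nd3 and mt-Atp8 stood far above the nuclear members in siControl. From reads on the gene alone, mt-Nd3 lay above the highest nuclear member and mt-Atp8 within the nuclear range. On a scale of CPM per kilobase of exon, mean levels were 10063 for mt-Co1, 4672 for mt-Nd1, 3551 for mt-Co2 and 3479 for mt-Atp6, down to 223 for mt-Nd3 and 28.6 for mt-Atp8. From reads on the gene alone, the highest nuclear members on that scale were Atp5a1 at 187, Atp5b at 132, Uqcrfs1 at 90.7, Sdhd at 72.9 and Cox4i1 at 72.5. At the low end were Cox5a at 0.969, Atp5o at 0.788, Cox7a1 at 0.553 and Ppargc1a at 0.293. With the reads of pseudogene copies added the order was another, for mitochondrial genes too. There mt-Co1 reached 11462, mt-Atp6 7477, mt-Co2 7101, mt-Co3 6268 and mt-Nd3 522, while mt-Nd1, with no paired copy, stayed at 4672. Among nuclear members, Cox6a1 reached 178, Atp5o 87.4, Ndufa4 82.2 and Cox5a 33.1. For several of these low members most reads lay on another locus.

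Part of the mitochondrial genome has a second copy in the nucleus, on chromosome 1, and its annotated pseudogenes took about as many reads as the genes they cover in full in the 5 libraries, or more. The copy spans bases 24611535 to 24616197 of chromosome 1 (GRCm38) and holds 7 annotated pseudogenes, of mt-Co1 (part), mt-Co2, mt-Atp6, mt-Co3, mt-Nd3, mt-Nd4l and mt-Nd4 (part). In siControl 1 to 3, mt-Co2 had 32454, 38684 and 47386 reads and its copy Gm28661 had 32152, 38700 and 47369. In siUsf2 1 and 2 they had 38127 and 38529 reads and 38557 and 38698 reads. The ratio of copy to gene was 0.991 to 1.01 for mt-Co2 and mt-Co3, 0.984 to 1.04 for mt-Nd4l, 1.13 to 1.18 for mt-Atp6 and 1.26 to 1.51 for mt-Nd3. An older copy of mt-Co2 on chromosome 2, Gm13341, of lower identity, had 55 to 142 reads. The stretch of bases 445 to 504 of mt-Co2 is given to show how far the copies can be told apart. It is the window of 60 bases with the most differences to Gm13341 (in capitals, 6), and Gm28661 has none. The mt-Co2 and copy sequences are from GENCODE M21 transcripts.
mt-Co2: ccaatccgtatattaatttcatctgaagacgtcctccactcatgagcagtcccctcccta
Gm28661: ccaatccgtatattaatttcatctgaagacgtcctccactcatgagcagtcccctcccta
Gm13341: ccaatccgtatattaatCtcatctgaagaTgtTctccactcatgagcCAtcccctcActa

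The library labelled siUsf2 3 had few reads on the genes and on the copies of that segment. Of mt-Co2 it held 110 reads and of Gm28661 44. For mt-Nd3 the copy was less depleted than the gene: mt-Nd3 had 1 read and its copy Gm28438 had 92, or 26.9 CPM against 103 to 106 CPM in siControl, and the log2 ratio of gene and copy together to the siControl mean was -2.73. The 5 genes covered over their whole length, mt-Co2, mt-Atp6, mt-Co3, mt-Nd3 and mt-Nd4l, were at 0.378% to 1.33% of their siControl mean. The 5 genes with no copy there, mt-Nd1, mt-Nd2, mt-Nd5, mt-Nd6 and mt-Cytb, were at 65.4% to 72.4%. The partly covered mt-Nd4 and mt-Co1 were at 49.6% and 71.1%, and mt-Atp8, which lies between mt-Co2 and mt-Atp6, had 3 reads (0.879 CPM, 95% Poisson interval 0.181 to 2.57). The 5 lowest genes come from complexes I and IV and ATP synthase. Of complex I, mt-Nd1, mt-Nd2, mt-Nd5 and mt-Nd6 lie outside the segment and were not among them. Complex IV and ATP synthase have no mitochondrial gene wholly outside it.

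**Figure D3:**
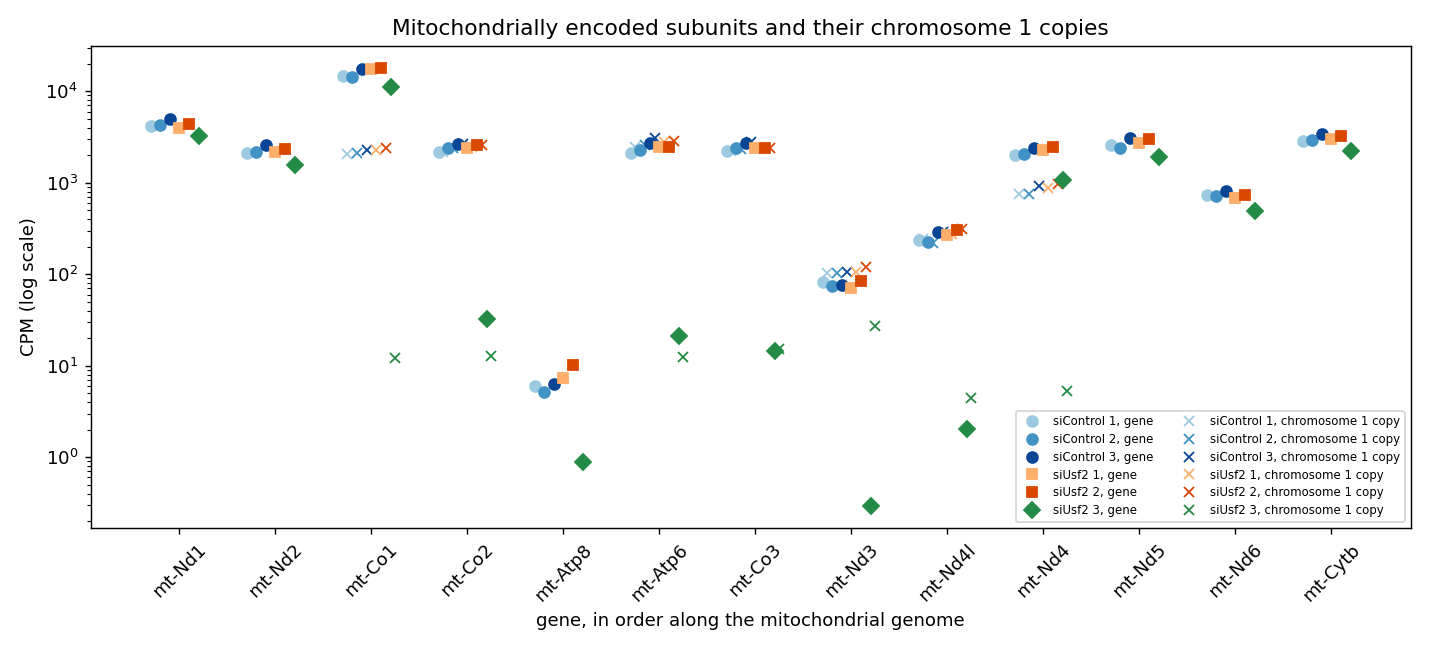
CPM on a log scale of the 13 mitochondrially encoded genes in their order along the mitochondrial genome (symbols by library) and of their chromosome 1 copies (crosses, same colours). In the 5 libraries the crosses lie on or just above the genes they cover in full, and in the library labelled siUsf2 3 (green) genes and copies of that stretch both drop, to 32.2 CPM or less for the genes.

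For several nuclear members the reads of the 5 libraries lay on processed pseudogenes, which are intronless copies of the messenger RNA. Atp5o had 23, 38 and 13 reads in siControl 1 to 3, and its copy Gm5436 on chromosome 12 had 2525, 2867 and 2882. In the library labelled siUsf2 3 the order was turned: Atp5o had 258 reads and Gm5436 had 5. The gene took a mean of 0.887% of the joint counts in siControl for Atp5o, 1.83% for Ndufa4, 2.95% for Cox5a, 3.92% for Uqcrb, 7.13% for Cox6c, 9.78% for Cox6a1 and 11.4% for Ndufs3. The 60 bases around an exon junction of Atp5o (bases 431 to 490 of the transcript Atp5o-201, junction after base 460) are the same in the copy, which is at 97.0% identity over its length and carries all 6 junctions of the transcript without introns.
Atp5o: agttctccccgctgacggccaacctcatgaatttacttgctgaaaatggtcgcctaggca
Gm5436: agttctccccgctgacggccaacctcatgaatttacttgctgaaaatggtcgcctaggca

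With pseudogene counts added to parent genes, 12 nuclear members fell, 40.0% of those tested. In that fit 8% of all 14812 genes fell and 5.94% rose. Whether reads on a copy come from its parent gene was not tested. The 8 were kept, and Atp5o, Cox5a, Ndufs3 and Tfam joined them. The copies of Atp5o, Cox5a and Ndufs3 hold most of the joint reads and fell on their own in the main fit. These were Gm5436, Gm11633 and Gm12251 (edgeR adjusted p = 0.0311, 0.049 and 0.017), at 97%, 93% and 98.6% identity. Atp5o with its copy was at 172, 181 and 163 CPM in siControl 1 to 3 and at 136 and 148 CPM in siUsf2 1 and 2 (log2 fold change -0.30, edgeR adjusted p = 0.0181). Ndufs3, a core subunit of complex I, was at 56.7, 57.7 and 51.2 CPM and at 43.6 and 44.2 CPM (log2 fold change -0.35, edgeR adjusted p = 0.0184), where the gene alone gave 0.00. Cox5a was at 64.9, 77.6 and 65.8 CPM and at 58.2 and 55.4 CPM (log2 fold change -0.31, edgeR adjusted p = 0.0344). None of these groups overlaps. Tfam has no paired copy, and its edgeR adjusted p went from 0.0549 to 0.0415. In this setting, Cox6c and Cox6a1 had log2 fold changes of -0.05 and -0.17, nearer 0 than from the gene alone. The mitochondrial genes with copies added ranged from -0.10 to 0.57, and none passed.

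In the library labelled siUsf2 3, 23 of the 30 tested nuclear members lay above every siControl library, where 38.5% of all genes did, and 5 below, where 42.8% did. For the 11 members with a pseudogene copy the ratio to siControl was lower when copies were added. Ndufa4 held 93.4 CPM there against 1.35 to 2.56 CPM in siControl, and with its copies 93.4 CPM against 103 to 123 CPM. Uqcrb held 40.4 against 1.64 to 2.06 CPM, and with copies 43.6 against 41.7 to 54.1 CPM. Over the nuclear members the median log2 ratio to the siControl mean was 1.00, and 0.24 with copies added. Cox5b, with no paired copy, held 65.9 CPM against 3.92 to 5.81 CPM in siControl. Atp5b held 1117 CPM against 537 to 579 CPM, and Uqcrfs1 and Sdhd, both members that fell, were at 103 and 77.0 CPM, below every siControl library.

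**Figure D4:**
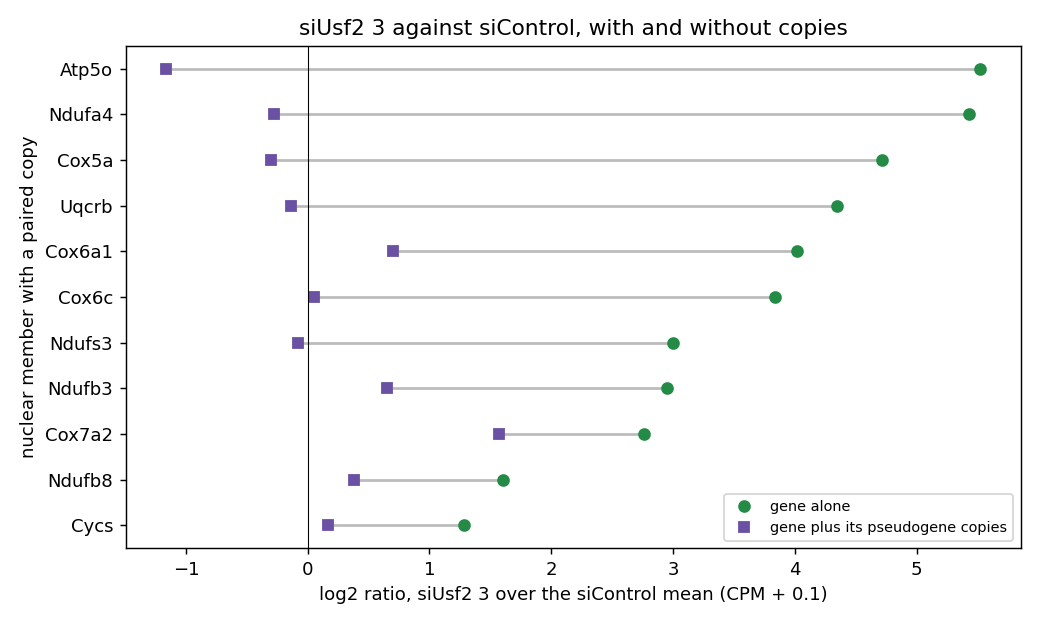
Log2 ratio of the library labelled siUsf2 3 to the siControl mean (horizontal axis, on CPM + 0.1) for the 11 nuclear members with a paired pseudogene copy, from the gene alone (green circles) and from the gene with its copies (purple squares). Every square lies to the left of its circle, and those of Ndufa4, Cox5a, Uqcrb, Cox6c, Ndufs3, Cycs and Ndufb8 lie between -0.30 and 0.38.

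With all 6 libraries in the fit no member passed by edgeR, and 4 were lower and none higher at an unadjusted p below 0.05. Of all 16662 genes 0.042% were called there. The log2 fold change of Uqcrfs1 was -0.39 and of Sdhd -0.32, near those of the 5 libraries, while that of Atp5b turned to 0.22 and that of Cox4i1 to 0.27.

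Promoter sequences were at hand for 23 of the members (24 promoters of 300 bases, RefSeq, GRCm38.p6, from 250 bases before to 50 after the start). Those of Cox4i1, Cox6a2 and Atp5a1, which fell, were not searched, nor were those of 5 other nuclear members. The E-box CACGTG, the core site of USF factors, was found on either strand in 1 of them, that of Ndufv1, or 4.17%, against 7.15% of all 32851 promoters. The consensus site of NRF1 was found in 5, or 20.8%, against 4.6% of all: those of Atp5o, Cox6a1, Sdha, Sdhd and Uqcrc1. The estrogen-related receptor site TCAAGGTCA was found in that of Sdhd, against 0.423% of all. The promoters of the members that fell and hold a motif are given below as sense strands, with the motif matches in capitals. They lie at chr19:4012706-4013005 (minus strand) for Ndufv1, chr9:50603800-50604099 (minus strand) for Sdhd and chr9:108936398-108936697 (plus strand) for Uqcrc1. The matches do not overlap each other. A match describes letters in the window and is not a measured binding site.
Ndufv1: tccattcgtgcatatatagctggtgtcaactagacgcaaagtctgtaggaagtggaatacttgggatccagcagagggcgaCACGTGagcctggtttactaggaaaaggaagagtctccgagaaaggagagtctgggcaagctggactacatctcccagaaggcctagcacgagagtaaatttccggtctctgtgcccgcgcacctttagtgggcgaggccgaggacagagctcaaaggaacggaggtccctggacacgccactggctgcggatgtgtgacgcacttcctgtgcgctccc
Sdhd: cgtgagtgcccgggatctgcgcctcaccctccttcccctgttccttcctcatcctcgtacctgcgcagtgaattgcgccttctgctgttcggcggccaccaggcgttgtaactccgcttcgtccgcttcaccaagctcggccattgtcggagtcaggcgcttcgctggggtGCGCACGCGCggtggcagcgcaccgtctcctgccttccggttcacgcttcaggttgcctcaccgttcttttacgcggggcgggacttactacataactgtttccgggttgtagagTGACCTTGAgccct
Uqcrc1: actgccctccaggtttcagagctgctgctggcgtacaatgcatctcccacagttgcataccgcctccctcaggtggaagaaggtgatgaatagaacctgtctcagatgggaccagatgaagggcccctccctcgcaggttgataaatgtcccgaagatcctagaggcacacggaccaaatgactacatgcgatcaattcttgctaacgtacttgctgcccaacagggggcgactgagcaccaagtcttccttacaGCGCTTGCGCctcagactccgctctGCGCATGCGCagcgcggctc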

How the data were processed

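Read counts per Ensembl gene were used as the authors deposited them, as whole numbers without normalization. Per the submitters' processing notes the build was mm10 and the tools were FastQC, Trimmomatic, HISAT2, featureCounts and DESeq2; the sources used here give neither versions nor strand setting nor the treatment of reads with several matches. Another deposited table, named for TPM, equals these counts scaled to each library's total and was not used. Symbols, exon lengths and coordinates came from GENCODE M21 (GRCm38), which held 52133 of the 55414 identifiers.

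The comparison of siUsf2 1 and 2 with siControl 1 to 3 used edgeR 4.0.16 in R 4.3.3: low counts removed by filterByExpr, TMM factors, and a robust two-sided quasi-likelihood test. P-values were adjusted by Benjamini-Hochberg over every tested gene, with calls at an adjusted p below 0.05. It was tested on simulated data. The SE is the log2 fold change divided by the square root of the F statistic. Pseudogene transcripts were paired with coding transcripts by BLAST+ 2.17.0 (identity of 85% or more over 50% of the pseudogene and 150 identical bases). This gave 2673 parents for 7783 pseudogenes. DESeq2 1.42.0 and the other settings are in the closing section. Genes named are all members, Usf2, Usf1, and up to 3 called genes per direction of each pathway list with the smallest p; the markers and the genes named as overlaps are exceptions. The members, lists and choice of libraries were made with earlier results of these data known. A count of 0 allows up to 0.169 to 0.203 CPM (3 counts) in the 5 libraries and 0.879 CPM in the library labelled siUsf2 3. Among the 5 libraries, no replicate pair was alike within sampling noise (chi-square per degree of freedom 4.18 to 11.9).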

Additional observations from a re-analysis of the deposited data

Results flagged for a closer look

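In the library labelled siUsf2 3, which is outside the main comparison, 12 nuclear members lay more than 2-fold above every siControl library beyond their 95% Poisson interval. In CPM, these were Ndufb3 at 21.1, Ndufb8 at 44.2, Ndufs3 at 50.4, Uqcrb at 40.4, Cycs at 62.7, Ndufa4 at 93.4, Cox5a at 56.2, Cox5b at 65.9, Cox6a1 at 203, Cox6c at 156, Cox7a2 at 62.7 and Atp5o at 75.6. How many of all genes meet this rule was not computed, so the count has no background share. By the looser rule of lying above every siControl library, 38.5% of all genes did. Of the 12, Cox5b has no paired pseudogene copy. For the others, the log2 ratio to the siControl mean with copies added ran from -1.16 for Atp5o to 1.57 for Cox7a2.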

How the results depend on the processing

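With 5 libraries and modest changes, calls near the threshold depend on single libraries, and for tested members with a siControl mean below 3 CPM the SE was 0.33 to 0.57 on the log2 scale. Leaving out 1 library gave 349 to 1596 genes higher and 519 to 1964 lower (855 and 1102 with all 5), and 0 to 4 members higher and 1 to 10 lower. The fits without siUsf2 1 or without siUsf2 2 leave 1 siUsf2 library, with the spread taken from the siControl libraries. RLE normalization and leaving mitochondrial genes out of the totals changed no member's call, and upper-quartile normalization and DESeq2 ended that of Uqcrc1. With no filter, 10 members fell. A fit with the replicate number as a block, where siControl 3 is alone in its block, gave 1719 genes higher and 2270 lower. It called 5 members higher (mt-Atp8, mt-Co1, mt-Nd4, mt-Nd4l and mt-Nd5) and 12 lower. The labels tie no number to a shared culture, so the libraries were taken to share only a number. Over all tested genes, the deviations of same-numbered libraries from their group means correlated at -0.00304 and 0.00204. Deviations of siUsf2 1 and 2 from their own mean mirror each other, so these values are not separate checks. A shared culture or batch was not tested. With siUsf2 3 added, 0 genes were higher and 7 lower, and 0 members lower; the cause was not tested. Log2 fold changes that turned sign then were mt-Nd4 -0.18, mt-Nd4l -0.39, mt-Nd5 -0.10, mt-Co1 -0.03, mt-Co2 -0.55, mt-Atp6 -0.54, mt-Cytb -0.15, Ndufa1 0.41, Ndufb3 1.57, Ndufb8 0.50, Ndufs1 0.03, Sdhb 0.28, Uqcrc1 0.13, Uqcrc2 0.20, Uqcrb 2.80, Cycs 0.35, Ndufa4 3.85, Cox4i1 0.27, Cox5a 3.16, Cox5b 2.11, Cox6a1 2.46, Cox6c 2.34, Cox7a2 1.47, Atp5b 0.22 and Atp5o 3.93. Others that turned were mt-Nd2 0.06 and mt-Co3 0.04 with the block, mt-Nd3 0.00 and Cox7a2 0.01 with RLE, mt-Nd3 0.03, Ndufb3 0.03 and Cox7a2 0.04 with upper-quartile normalization, mt-Nd3 0.00 and Cox7a2 0.01 with DESeq2, mt-Nd3 0.06 and Ndufs3 -0.35 with pseudogene counts added and Ndufs3 -0.01 with no filter. Leaving out 1 library turned the sign of 12 members, none of them called in the main comparison, with ranges of mt-Nd1 -0.18 to 0.00, mt-Nd2 -0.11 to 0.07, mt-Nd3 -0.15 to 0.13, mt-Co2 -0.04 to 0.11, mt-Co3 -0.12 to 0.05, mt-Atp6 -0.04 to 0.15, mt-Cytb -0.07 to 0.12, Ndufa1 -0.29 to 0.10, Ndufb3 -0.20 to 0.14, Ndufs3 -0.29 to 0.23, Ndufa4 -1.13 to 0.27, Cox7a2 -0.06 to 0.06.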
